A study of Drosophila melanogaster with 2 samples.

Results

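Pericentric heterochromatin is the repeat-rich, compacted chromatin that flanks the centromeres. In Drosophila it is marked by methylation of histone H3 at lysine 9 and bound by the HP1 protein, and it consists largely of satellite repeats and transposon remnants. It also holds genes, many with very long introns packed with repeats, that are transcribed in this setting. Reads from its repeated parts cannot be placed at a single position, so a list of binding regions shows mainly its single-copy stretches.

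The regions described here are those that start on arm 2L at position 22000000 or more, on 3L at 23000000 or more, on 3R below 4200000 or on X at 22600000 or more (dm6 build). No measured binding value entered this choice. They numbered 254 of the 30000 regions in the list of both replicates pooled, 106 of 30000 in replicate 3 and 536 of 30000 in replicate 4. The comparison was with 23820, 23949 and 23605 regions elsewhere on the same 4 arms. The data are chromatin immunoprecipitation with sequencing (ChIP-seq) of CG14965-eGFP, in which green fluorescent protein is joined to the C terminus of the CG14965 product. Chromatin from whole embryos of mixed sex, 0 to 24 h old, of 1 stable transgenic line was sheared to 200 to 800 bp and precipitated with an antibody to GFP. All tissues and stages of that age range were mixed, and the sources used here state neither the promoter of the transgene nor the state of the native gene. The only group is that line, in 2 biological replicates numbered 3 and 4, and neither the control library nor an untagged line was analysed here.

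The chosen intervals bore the sequence marks of their label. They span 11.8 Mb, against 95.5 Mb elsewhere on the arms. Bases masked as repeats in the reference made up 40.8% of them against 17.5% elsewhere, and annotated transposable elements 15.1% against 4.08%. Words of 36 bases that occur once in the assembly began at 41.9% of positions, against 94.5% elsewhere. The intervals hold 109 protein-coding genes, against 10904 elsewhere. On X the boundary was less clean: 82.3% of positions in the first 500 kb inside it were unique and 36.3% in the last 500 kb outside it. The first 250 kb inside the 2L boundary were also mostly single-copy. There 90.1% of positions were unique, although annotated transposable elements covered 29.4%, and the stretch held 34 of the 64 pooled pericentric regions on 2L.

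The strongest pericentric region, the only one in the list of optimal peaks, lay in an intron of fog, which encodes a secreted signal for cell shape change at gastrulation, and in the overlapping gene CG42346. The next strongest lay in coding sequence of Clamp, the gene of a zinc-finger protein of dosage compensation, and the third in intergenic sequence near Grl40a. Their 101 bases around the pooled summit, read from the NCBI RefSeq copy of the Release 6 assembly (dm6), are shown because these are the sites on which the signal values below turn, with the central 11 bases in capitals.
fog (chrX:22837570-22837670, plus strand): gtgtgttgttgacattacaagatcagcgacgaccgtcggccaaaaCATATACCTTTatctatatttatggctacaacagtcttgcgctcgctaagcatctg
Clamp (chr2L:22167633-22167733, plus strand): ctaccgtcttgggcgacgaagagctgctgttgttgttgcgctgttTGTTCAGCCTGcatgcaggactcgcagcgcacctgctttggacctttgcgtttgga
Grl40a (chr2L:22036959-22037059, plus strand): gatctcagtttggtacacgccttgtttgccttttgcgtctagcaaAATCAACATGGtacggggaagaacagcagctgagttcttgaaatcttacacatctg

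Pericentric sequence held few listed regions for its length in every list. The pooled list had 21.6 regions per Mb inside the intervals and 249 per Mb elsewhere. Replicate 3 had 9.01 per Mb inside and 251 elsewhere, and replicate 4 had 45.6 inside and 247 elsewhere. The density was thus 11.5-fold lower inside in the pooled list, 27.9-fold lower in replicate 3 and 5.42-fold lower in replicate 4. Counted per Mb of unique 36-base words, the pooled list had 52.1 inside against 264 elsewhere, a 5.07-fold lower density. The same ratio was 12.3 in replicate 3 and 2.38 in replicate 4. How multiply mapped reads were treated is not given in the sources used here, and the part of unique sequence in the result was not tested further.

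With 2 replicates and no second group, an exact sign-flip test over replicates could not give p below 0.5, so no difference here carries a test. Each statement is a description of the 3 lists, and the pooled list is made of the same 2 libraries as the others. Every list is limited to 30000 regions, so a higher share in one place means a lower share in another. The files hold no read numbers, so depth is unknown. The 95% Wilson intervals given below cover the counting of regions alone.

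All 4 arms showed a lower density inside in both replicates, to different degrees. In replicate 3 the arms had 21.1 regions per Mb on 2L, 4.50 on 3L, 4.29 on 3R and 35.0 on X. In replicate 4 they had 76.6 on 2L, 50.5 on 3L, 26.0 on 3R and 56.2 on X. Elsewhere on the arms the densities ran from 175 to 285 per Mb over both replicates, with X the lowest in each. X and 2L were the densest pericentric arms in each replicate, and 3R the sparsest.

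**Figure D1:**
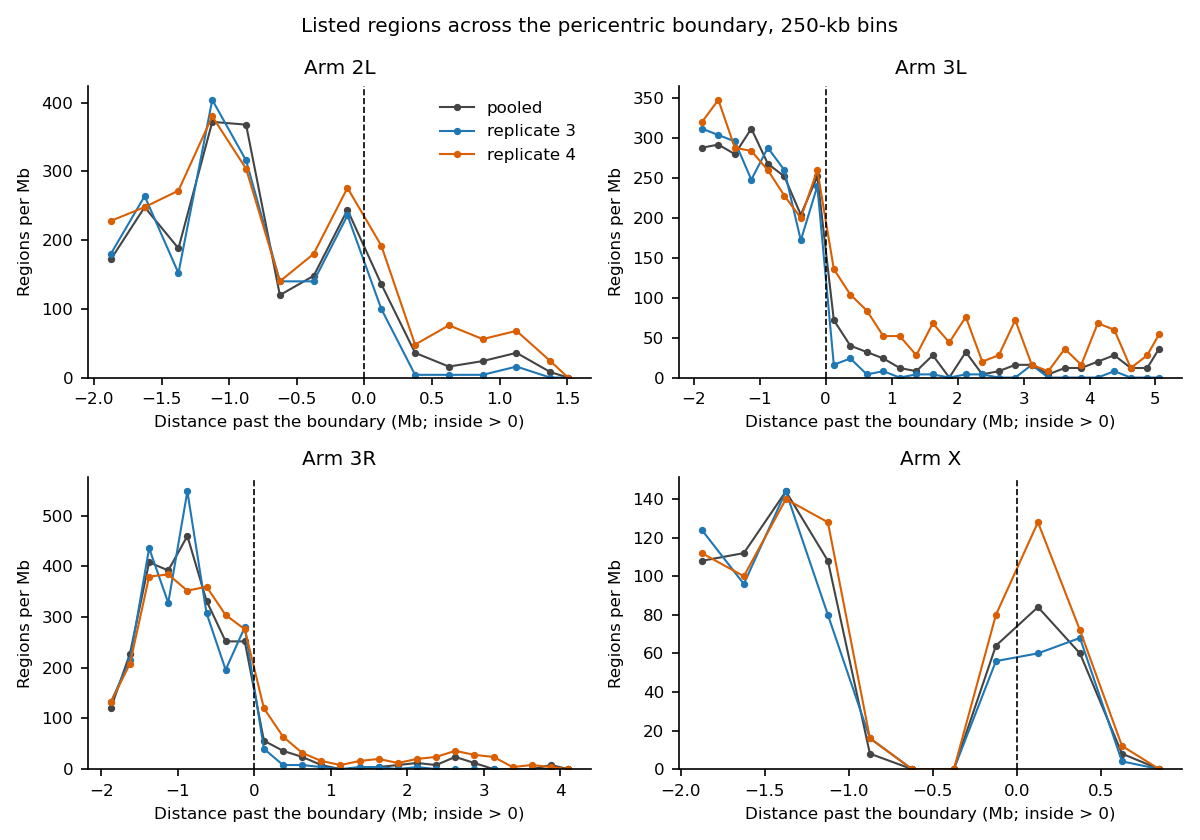
Regions per Mb in bins of 250 kb (y axis, separate scale for each arm) against distance past the pericentric boundary in Mb (x axis, inside positive, dashed line at the boundary) for the pooled list and each replicate. On 3L the last bin outside held 252 pooled regions per Mb and the first inside 72.0, and on 3R they held 252 and 56.0; on X the bins from 750 to 250 kb outside the boundary are empty.

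The density was higher next to the boundary than deeper in. In the first 500 kb inside, the 4 arms together had 65.0 regions per Mb in the pooled list, 40.0 in replicate 3 and 108 in replicate 4. Deeper than 500 kb the values were 12.7, 2.66 and 32.8 per Mb. By number, the first 500 kb held 130 of the 254 pooled and 80 of the 106 replicate 3 regions, but 216 of the 536 of replicate 4, of which 320 lay deeper. In the last 500 kb outside they were 177, 165 and 197 per Mb. The unique share of positions fell along the same path, from 74.1% outside through 66.8% in the first 500 kb to 36.3% deeper. On X the bins from 750 to 250 kb outside the boundary held 0 regions in all 3 lists, with 12.3% and 7.12% of positions unique. The first 250 kb inside it, with 87.9% unique, held 21 pooled regions. The boundaries were set by position, and the pooled regions nearest to them inside and outside had signals of 33.0 and 23.3 on 2L, 23.3 and 21.2 on 3L, 32.1 and 25.8 on 3R, and 23.2 and 22.1 on X.

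The replicates differed in how many pericentric regions they listed. Replicate 4 listed 5.06 times as many pericentric regions as replicate 3, while elsewhere on the arms the ratio was 0.986. By arm the ratio inside was 11.2 on 3L (258 against 23), 6.06 on 3R (109 against 18), 3.62 on 2L (116 against 32) and 1.61 on X (53 against 33). Outside, it ran from 0.845 on X to 1.08 on 2L. Whether a difference between libraries, such as depth or chromatin quality, accounts for it was not tested.

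Most of the surplus of replicate 4 lay away from promoters. Summits within 500 bp of a transcription start site (TSS) numbered 23 in replicate 3 and 27 in replicate 4. Introns held 36 and 257, intergenic sequence 25 and 180, and coding sequence 13 and 51. Windows of 500 bp around TSSs cover only 1.83% of the intervals, so most added regions would lie outside them if spread evenly by length. Per Mb of promoter window the pericentric density was 108 in replicate 3 and 127 in replicate 4, against 7.27 and 44.6 per Mb outside such windows. Elsewhere on the arms, replicate 4 had fewer promoter summits than replicate 3 (4557 against 6833) and about as many intronic ones (8711 against 8099).

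**Figure D2:**
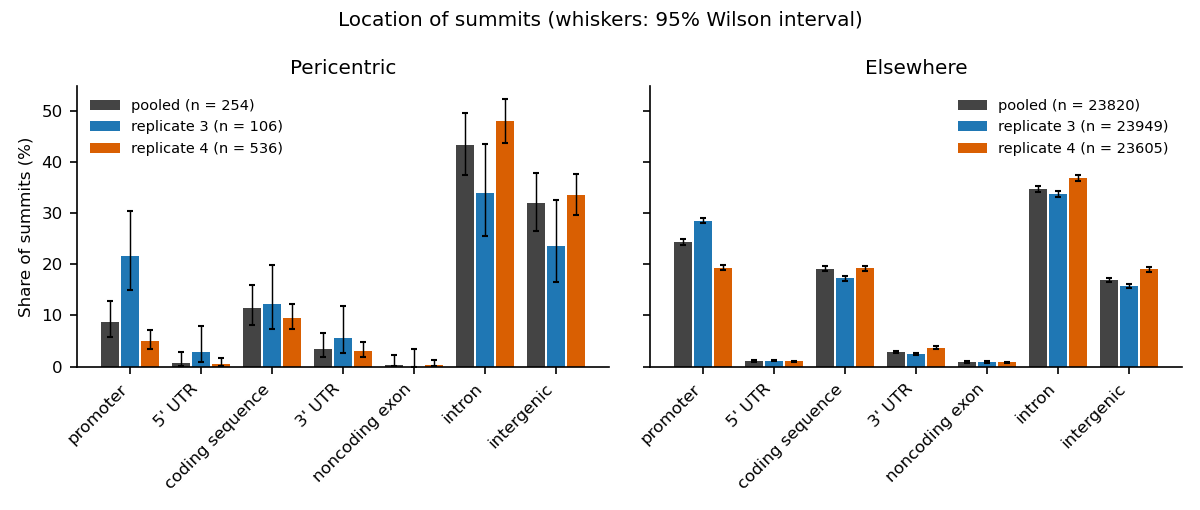
Share of summits in each class of annotated sequence (y axis, percent) for pericentric regions (left) and regions elsewhere on 2L, 3L, 3R and X (right), with 95% Wilson intervals. Among pericentric regions promoters held 21.7% in replicate 3 and 5.04% in replicate 4, and introns 34.0% and 47.9%.

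A smaller share of pooled regions met both replicates inside than elsewhere. Of the 254 pooled regions, 34 (13.4%, 9.74 to 18.1%) overlapped a region of each replicate by at least 1 bp, against 41.8% of those elsewhere. Another 168 (66.1%, 60.1 to 71.7%) overlapped a region of replicate 4 alone, against 27.0% elsewhere. Replicate 3 alone supported 24 (9.45% against 25.0%), and 28 (11.0% against 6.18%) met a region of neither. Between the replicate lists, 38 of the 106 regions of replicate 3 (35.8%, 27.4 to 45.3%) overlapped a region of replicate 4. That interval includes the 43.0% elsewhere. In the other direction 37 of 536 (6.90%, 5.05 to 9.37%) did, against 41.2%. The second share is limited by the 106 regions of replicate 3, so it restates the 5.06-fold difference in number and is no separate result. The shares of pooled regions depend on that difference too, with 58 of 254 meeting replicate 3 and 202 meeting replicate 4. They are no separate result either. Over the 34 regions with both, Spearman's rho of the replicate signals was 0.304, and over 9951 elsewhere it was 0.443. Both sets were chosen by the pooled signal of the same libraries.

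**Figure D3:**
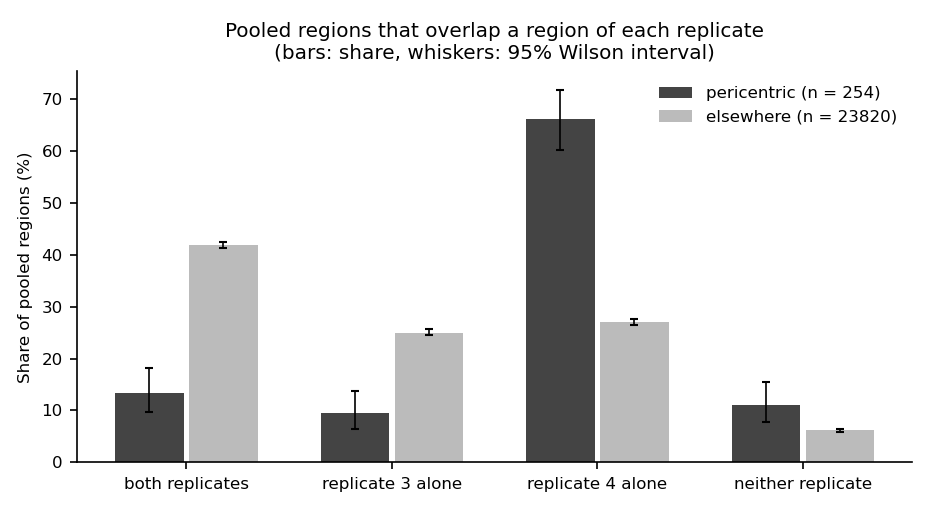
Share of pooled regions (y axis, percent, with 95% Wilson intervals) that overlap a region of both replicates, of 1 replicate alone or of neither, for 254 pericentric regions (dark) and 23820 elsewhere (light). The pericentric share peaks at 66.1% for replicate 4 alone, where regions elsewhere have 27.0%. Replicate 3 listed 106 pericentric regions and replicate 4 listed 536, and the shares depend on that difference.

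Pericentric regions also ranked low by signal value, the deposited score of a region, whose scale is not stated. Ranks within a list are given as percentiles, with 100 the highest signal of the list. For single sites the position in the list is given, counted from the highest signal. The lists may differ in scale, so a site compares between replicates by rank alone. The median pericentric percentile was 30.7 in the pooled list, 27.7 in replicate 3 and 40.6 in replicate 4. Regions elsewhere had medians of 50.1, 49.8 and 49.9. By arm, the pooled medians were 38.3 on 2L, 31.0 on X, 24.5 on 3R and 24.2 on 3L, each under its own arm's value of 47.6 to 51.0.

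No pericentric region was among the 500 highest of any list, where 1.69 to 1.72% of regions elsewhere on these arms were. A count of 0 allows a share of up to 1.18% of the pooled, 2.83% of the replicate 3 and 0.560% of the replicate 4 regions, so in replicate 3 a lower share was not detectable at this number of regions. Among the 5000 highest there were 8 pooled (3.15%, 1.60 to 6.09%), 5 replicate 3 (4.72%) and 36 replicate 4 regions (6.72%), against 16.7 to 16.8% of regions elsewhere. Optimal peaks, which are the highest pooled regions by signal and passed the authors' irreproducible discovery rate (IDR) threshold, made up 4.34% of the whole pooled list, so this count is another view of rank. Among pericentric regions 1 of 254 was an optimal peak, the one in fog, and a second overlapped it.

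**Figure D4:**
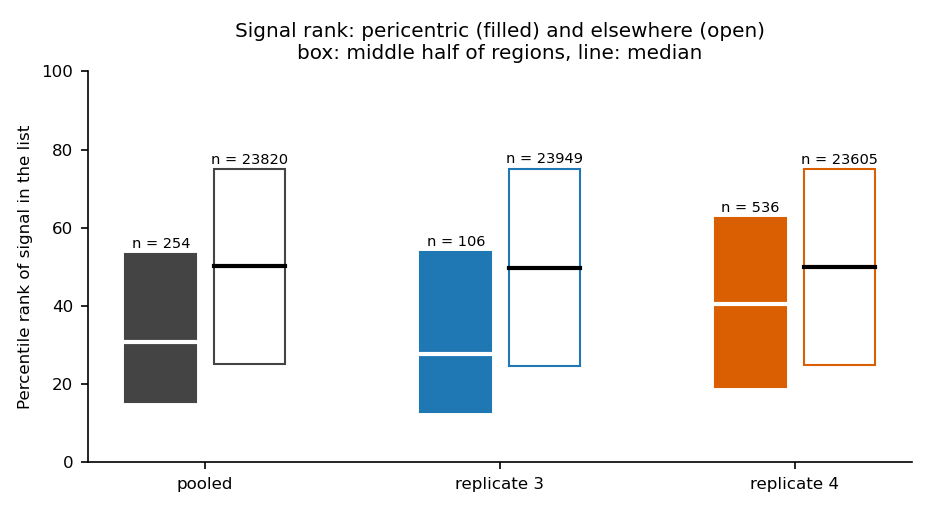
Percentile rank of the signal value within each list (y axis) for pericentric regions (filled) and regions elsewhere on the same arms (open); boxes span the middle 50% of regions and lines mark medians. Pericentric medians were 30.7, 27.7 and 40.6 in the pooled, replicate 3 and replicate 4 lists, and those elsewhere lay near 50.

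The fog region spanned 22837402 to 22837837 on X. Its signal was 72.9 in the pooled list (rank 1198), 38.1 in replicate 3 (rank 1608) and 35.5 in replicate 4 (rank 1047). It was the highest pericentric region of replicate 3 and the second highest of replicate 4. Its summit lay 1361 bp from the nearest TSS of fog, every 36-base word in it was unique, and 4.82% of its bases were repeat-masked. A further region in the 3' untranslated region of fog, at 22824697 to 22825132, had a pooled signal of 39.9. It had 18.8 in replicate 3 (rank 8157) and 19.7 in replicate 4 (rank 8067).

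The Clamp region, at 22167465 to 22167900 on 2L, was uneven between replicates. Its signal was 56.5 in the pooled list, 17.8 in replicate 3 (rank 9322) and 35.6 in replicate 4 (rank 1042), where it was the highest pericentric region. The region near Grl40a, at 22036791 to 22037226, had a signal of 49.1, with 22.4 in replicate 3 (rank 5311) and 28.9 in replicate 4 (rank 1905). A region in coding sequence of CG3651, at 22122965 to 22123400, had 47.0 in the pooled list and 33.7 in replicate 4, and no region of replicate 3 overlapped it. The promoter of lncRNA:CR46480 had 45.1, with 27.7 in replicate 3 (rank 3159) and 16.8 in replicate 4 (rank 13620). These 2L sites were 4 of the 6 highest pericentric regions of the pooled list. All lay within 250 kb of the boundary, in the stretch where 90.1% of positions were unique.

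The highest sites of the other arms lay in introns and at a promoter. The highest on 3R lay in an intron of Pzl, a gene related to Piezo mechanosensitive channels, at 2558862 to 2559297. This region had a pooled signal of 47.0, beside 20.0 in replicate 3 (rank 7001) and 24.6 in replicate 4 (rank 3416). Its summit was 185720 bp from any annotated TSS. The highest on 3L was at the promoter of RpL15, a gene of the large ribosomal subunit, at 27267017 to 27267452, with its summit 20 bp from the TSS. Its pooled value was 37.0, beside 17.3 in replicate 3 (rank 10029) and 18.4 in replicate 4 (rank 10229), so the replicates ranked it alike. An intronic region of l(3)80Fg at 26010688 to 26011123 had 36.7 in the pooled list and 27.8 in replicate 4, with none in replicate 3. On X an intron of Cda4, a chitin deacetylase gene, held 41.4 at 22631504 to 22631939. The replicates had 13.4 (rank 18108 in replicate 3) and 29.4 (rank 1799 in replicate 4).

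Some of the 5 highest sites of a replicate were missing from the other. In replicate 3 these were the 3' untranslated region of tio, a zinc-finger gene (2L 22024346 to 22024805, signal 30.6), and coding sequence of CG42748 (2L 22143909 to 22144368, 26.1). Neither overlapped a replicate 4 region, and the second had no pooled region. The replicate 3 site at the promoter of CR33294 (3R 4187118 to 4187577) had a value of 26.4 (rank 3579). It met a replicate 4 region of 15.2 (rank 18286). In replicate 4 an intron of CG40006 held 31.1 (2L 22755560 to 22755983, rank 1521), with 29.5 in the pooled list and none in replicate 3.

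At these boundaries, promoters held a smaller share of summits than elsewhere. Promoter windows held 22 of the 254 pooled summits (8.66%, 5.79 to 12.8%) and 24.4% of those elsewhere, and in replicate 4 the share was 5.04% against 19.3%. In replicate 3 it was 21.7% (14.9 to 30.5%) against 28.5%, so the interval there includes the value of the arms. With the boundaries 500 kb farther from the centromeres the replicate 3 share was 30.7% against 28.5%, the opposite direction. The pooled share was then 18.4%, and 2.42% with boundaries 500 kb nearer. Introns held 110 pooled summits (43.3%, 37.4 to 49.5%) and intergenic sequence 81 (31.9%, 26.5 to 37.9%), against 34.7% and 16.9% elsewhere. Coding sequence held 29 (11.4%, 8.07 to 15.9%) against 19.1%. The median distance to a TSS was 7758 bp in the pooled list, 2789 bp in replicate 3 and 10185 bp in replicate 4, against 1609, 1403 and 1973 bp.

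Windows of 500 bp around TSSs cover 1.83% of the intervals and 14.8% of the arms elsewhere. Per Mb of such windows, pooled regions were 103 inside and 411 elsewhere, a 3.99-fold lower density. Outside the windows they were 20.3 and 222, a 10.9-fold lower density. In replicate 3 the corresponding ratios were 4.48 and 29.0, and in replicate 4 they were 2.54 and 5.25. In both replicates the gap to the arms was thus smaller at promoters than away from them. Per Mb of unique words the ratios of the pooled list were 3.38 and 4.79, those of replicate 3 were 3.83 and 12.7, and those of replicate 4 were 2.17 and 2.31, nearly equal.

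By gene, 13 of the 109 pericentric protein-coding genes (11.9%, 7.10 to 19.3%) had a pooled region at a promoter, against 42.8% of 10904 elsewhere. Replicates 3 and 4 each had 16 (14.7%), against 47.7% and 34.6%. Gene bodies held a pooled region in 48 (44.0%), a replicate 3 region in 31 (28.4%) and a replicate 4 region in 66 (60.6%), against 54.3 to 54.8% elsewhere. Gene length was not matched. Besides RpL15, the promoter summits with the highest pooled signal belonged to lncRNA:CR46480 (45.1), CG3651 (34.3), CR33294 (32.1) and CG12581 (31.9). Next came the ribosomal protein gene RpL10 (26.9), which no replicate list repeated.

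Genes long known from heterochromatin held most of their regions in replicate 4, which listed 5.06 times as many pericentric regions as replicate 3. This restates that difference and is no separate result about the genes. Of 18 such genes, 14 had a pooled region in the body or within 500 bp of a TSS, 10 a replicate 3 region and 15 a replicate 4 region. Counting bodies alone, 13, 9 and 14 of the 18 had one, beside 44.0%, 28.4% and 60.6% of the 109 pericentric coding genes. Length was not matched, and several of the 18 are very long, so nothing is read from these counts. On 2L, lt, which encodes a vesicle-trafficking protein, had 1 pooled, 0 replicate 3 and 3 replicate 4 regions. Its neighbour cta, the gene of a G protein subunit used at gastrulation, had 1 in each list. The ribosomal protein gene RpL5 had 2 pooled and 2 replicate 4 regions and none in replicate 3.

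On 3L the piRNA-pathway Argonaute gene AGO3 had 4 pooled, 1 replicate 3 and 10 replicate 4 regions over 135 kb. The RNA helicase gene Dbp80 had 5, 0 and 12, the SNARE gene Snap25 had 1, 0 and 9, and nvd, which acts in ecdysone synthesis, had 1, 0 and 4. The cohesin gene vtd had 2, 0 and 4, and Set1, the gene of a histone H3 lysine 4 methyltransferase, had 2, 1 and 4. On 3R, Myo81F, a myosin gene of 1966 kb, had 16 pooled, 1 replicate 3 and 40 replicate 4 regions. Parp1, which encodes a poly(ADP-ribose) polymerase, had 4, 1 and 4, and its highest replicate 4 region had a signal of 29.3. The hexosamine pathway gene Gfat1 had 2, 3 and 6, and Pzl, of 709 kb, had 1, 2 and 10. The ecdysone synthesis gene spok had 0, 0 and 1.

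The 3 listed genes on X had no region in replicate 4. The synaptic genes stnA and stnB share 1 transcript but count apart among the 18 genes above. Both had the same single replicate 3 region at their TSS (signal 18.0, rank 9103) and none in the other lists. The mRNA cleavage factor gene su(f) had no region in any list.

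**Figure D5:**
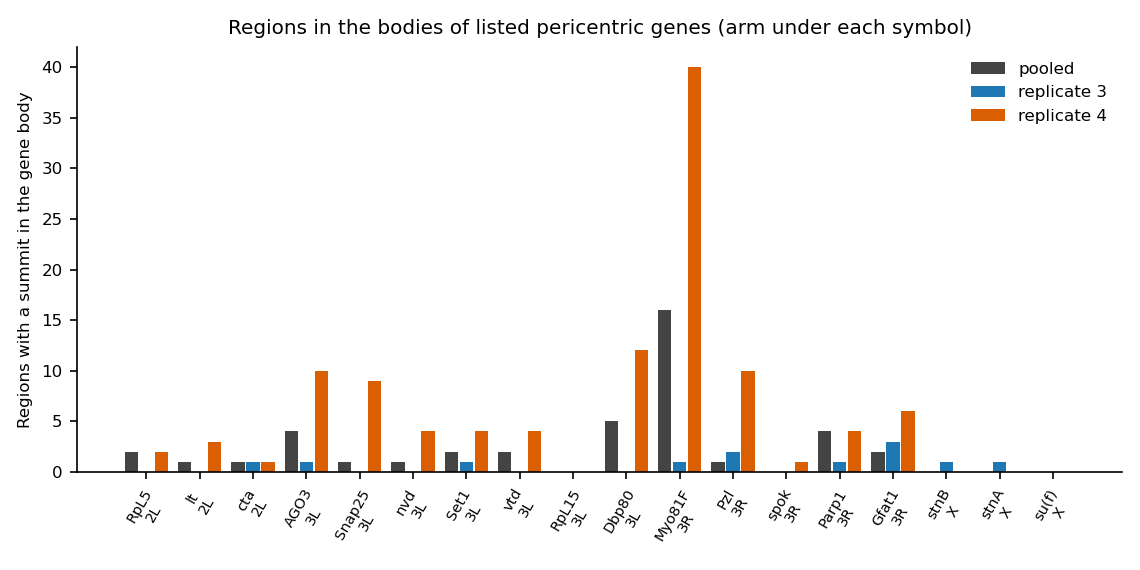
Number of regions with a summit in the body of each of 18 pericentric genes (y axis) for the pooled list and each replicate, with the arm under each symbol; stnA and stnB share their region. Myo81F has the most in replicate 4, 40, against 1 in replicate 3, and RpL15 shows 0 because its summits lie just before the gene.

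The listed regions lay in the less repetitive part of the intervals, where reads can be placed at a single position. The part of read placement in the shares below was not tested. Every 36-base word was unique in 153 of 254 pooled regions (60.2%), in 85 of 106 in replicate 3 (80.2%) and in 306 of 536 in replicate 4 (57.1%), against 98.2 to 98.5% elsewhere. The mean unique share per region was 94.6%, 96.4% and 95.2%, where the intervals as a whole had 41.9%. Only 5, 1 and 5 regions had under 50% unique words. Mean GC content within 50 bp of the summit was 41.9% ± 9.61 (SD over 254 regions) in the pooled list, against 45.2% ± 10.9 elsewhere, and the intervals as a whole had 39.9% against 42.4%.

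Transposon remnants contributed a share of summits that was alike in all 3 lists. Of pooled summits 27 (10.6%) lay in an annotated element, with 10 (9.43%) in replicate 3 and 52 (9.70%) in replicate 4, against 0.259 to 0.364% elsewhere. The most frequent pooled families were INE-1 with 8 summits, an old and abundant element of the fly genome, and Cr1a and gypsy8 with 4 each. In replicate 4 INE-1 had 16 and Cr1a 9, and in replicate 3 gypsy8 had 3. Annotated elements held 31.4% unique words inside the intervals and 13.2% elsewhere. Per Mb of annotated element the pooled list had 15.4 summits inside and 18.0 elsewhere, and replicate 3 had 5.70 and 15.9. Replicate 4 had 29.6 inside and 22.1 elsewhere, the opposite direction. Per Mb of unique words within elements all 3 lists were lower inside: 49.1 against 137 pooled, 18.2 against 121 in replicate 3, and 94.5 against 168 in replicate 4.

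Inside and elsewhere, few summits lay near the motif searched for the insulator protein CTCF. The letters AGNNGGCGC, the core of its element, were searched within 50 bp of the summit on both strands. They occurred at 3 of 254 pooled regions (1.18%, 0.402 to 3.41%), against 1.88% elsewhere. Replicate 3 had 2 of 106 (1.89%, 0.519 to 6.62%) against 1.72%. Replicate 4 had 4 of 536 (0.746%, 0.291 to 1.90%) against 1.66%. The 3 intervals each include the value of the arms, so no difference was detectable. The 3 pooled matches are shown, with the match in capitals and bases from the Release 6 genome, because they are the whole set: 1 in the 3' untranslated region of fog (signal 39.9), 1 in an intron of nAChRalpha4, an acetylcholine receptor gene (32.0), and 1 in intergenic sequence nearest CG43968 (30.1).
fog 3′ UTR (chrX:22824877-22824905, plus strand): ggtcgcctacAGATGGCGCgtgtgtgctt
nAChRalpha4 intron (chr3L:23280178-23280278, plus strand): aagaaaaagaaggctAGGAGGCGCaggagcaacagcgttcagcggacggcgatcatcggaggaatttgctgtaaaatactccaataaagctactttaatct
near CG43968 (chr3L:23819976-23820076, plus strand): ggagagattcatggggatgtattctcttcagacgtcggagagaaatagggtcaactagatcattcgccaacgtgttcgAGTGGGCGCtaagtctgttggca

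A replicate 3 region at the promoter of CG12581 (signal 22.2, rank 5445) also held a match, which is not shown. Another place, in an intron of Myo81F, held the same 9 letters as the fog match, on the minus strand, at a replicate 4 region of signal 17.2.
Myo81F intron (chr3R:2098621-2098721, minus strand): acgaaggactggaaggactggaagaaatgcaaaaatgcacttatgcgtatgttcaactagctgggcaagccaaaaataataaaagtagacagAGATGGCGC

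Satellite letters were rare inside and elsewhere. A pair of tandem copies of AAGAG occurred at 0 pericentric summits in any list, which allows shares of up to 1.18%, 2.83% and 0.560%. Elsewhere they occurred at 0.0167 to 0.0424%, below those limits, so no difference was detectable. A pair of copies of AATAT occurred at 1 pooled region (0.394%, 0.0695 to 2.20%), 0 of replicate 3 and 3 of replicate 4 (0.560%, 0.191 to 1.63%), against 0.101%, 0.138% and 0.106% elsewhere. The GAGA letters GAGAG occurred at 14.2% of pooled regions (36 of 254), against 12.9% elsewhere. In replicate 3 they occurred at 9.43% against 13.5%, the opposite direction, and in replicate 4 at 13.1% against 12.1%. The BEAF letters CGATA occurred at 8.27% (5.47 to 12.3%), against 11.6%, and the DRE letters TATCGATA, which contain CGATA, at 0.787% (0.216 to 2.82%), against 0.521%. In the replicates CGATA stood at 15.1% and 12.7% against 11.7% and 11.2%, the opposite direction to the pooled list. The 3 intervals for CGATA each include the value of the arms. TATCGATA stood at 1.89% (2 regions, 0.519 to 6.62%) against 0.672% in replicate 3. In replicate 4 it stood at 0.933% (0.399 to 2.16%) against 0.364%, an interval above the value of the arms that rests on 5 regions.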

How the data were processed

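The authors deposited region lists in narrowPeak form, per the labels' text files: peaks and background for the irreproducible discovery rate procedure (IDR), for each replicate and both pooled, and an optimal list. The sources used here name no peak caller or aligner. The deposited signal (column 7) is a score of unstated scale. The deposited −log10 significance of column 9 was used only as an alternative rank. Column 8 of the dm6 lists holds -1 throughout. The deposited offset gave each summit.

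Regions were set against Release 6 of the genome (the dm6 assembly) and Ensembl release 115 genes, without genes annotated as transposable elements for TSSs. Promoter summits lay at most 500 bp from a TSS. Other classes followed in the order 5′ UTR, coding, 3′ UTR, noncoding exon, intron, intergenic. Unique words of 36 bases were counted over both strands of all sequences of the assembly. Python 3.11.15, numpy 2.4.6, pandas 2.3.3 and scipy 1.17.1 were used, and the functions were tested on simulated data. Intervals are 95% Wilson. A count of 0 is limited by 3 counts.

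The named regions are the optimal peak, the 10 highest pooled, the 5 highest of each replicate and the nearest to each boundary. Of 19 gene symbols listed, 18 were found. The members and lists were chosen with earlier results of these data known. Depth is unknown. Coordinates start at 1.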

Additional observations from a re-analysis of the deposited data

Results flagged for a closer look

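The dm3 lists hold regions on sequences named as heterochromatin of the same arms (2LHet, 3LHet, 3RHet and XHet), which no comparison above uses. They were taken up because their number exceeds the 3 regions that a count of 0 allows. The pooled list had 51 of 25017, replicate 3 had 25 of 30000 and replicate 4 had 217 of 29807. In replicate 4, 123 were on 3LHet, 76 on 3RHet, 11 on XHet and 7 on 2LHet, against 8, 11, 5 and 1 in replicate 3. Their median signal percentile was 23.4 in the pooled list, 25.4 in replicate 3 and 39.6 in replicate 4. None of the 1285 dm3 optimal peaks was among them. The dm3 lists come from the same 2 libraries as the dm6 lists, so these counts and ranks are no separate result. The cause of the difference between replicates was not tested.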

How the results depend on the processing

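No paired analysis was possible because there is a single group. The rank by column 9 and the omission of arm X were chosen after seeing the data. The planned rank by column 8 was not run, since that column holds -1 throughout. Over 7 results and 50 alternatives, 35 values moved by less than the spread between replicates, or stayed within their counting interval. The other 15 moved by more, and the cause was not tested. The spread was 1.26 for the share of regions (1.06%), 1.20 for the optimal share (0.787%) and 11.8 for the promoter share (8.66%). No fall in these could therefore count as moved. Values without 1 replicate were set against a spread made of those same values. The tally is thus no measure of robustness. With boundaries 500 kb farther from the centromere, the pericentric share of regions on the arms rose from 1.06% to 2.53%, the share on an optimal peak from 0.787% to 2.96%, the overlap as a share of replicate 4 from 6.90% to 19.1% and unique words from 94.6% to 97.5%. With boundaries 500 kb nearer the centromere, that overlap was 3.12% and unique words 91.5%. With the 5000 highest regions, overlap was 20.0% of replicate 3 (1 of 5) and 2.78% of replicate 4 (1 of 36). With 50% overlap required it was 21.7% and 4.48%. Unique words of 50 and 100 bases gave 97.0% and 99.4%. Leaving out 1 replicate gave a share of regions of 0.441 to 2.22%, a median percentile of 27.7 to 40.6, an optimal share of 0.187 to 1.89%, a promoter share of 5.04 to 21.7% and unique words of 95.2 to 96.4%. Of the 1059 regions on the arms that rank as high as optimal peaks, 0.0944% were pericentric. The median percentile stayed below that of regions elsewhere in all 3 lists with either boundary shift and without X. The promoter share of replicate 3 was 30.7% against 28.5% elsewhere with boundaries farther out, the opposite direction to the 21.7% reported. Depth is unknown and limits how far low counts, such as the 1 optimal peak, can be read.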
